A study of Rattus norvegicus with 6 samples.

Results

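The stathmin family was described here in cultured rat testis cells labelled as Sertoli cells, which support developing sperm inside the seminiferous tubule. Its 4 genes, Stmn1, Stmn2, Stmn3 and Stmn4, were chosen by name among 14506 genes compared, and each had 1 probe set with exactly 1 gene symbol. They were picked with the differences between the ages already known, so the age differences of the members are given as a description, without a test. Each value is an RMA value, the summary of a probe set on the log2 scale, where a step of 1 is a 2-fold difference in signal. The scale has no true zero, and one probe set's level cannot be ranked against another's as an amount of transcript.

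Stathmins are small proteins that bind tubulin dimers, hold them out of the microtubule and favour its shortening. Stmn1 is the cytosolic member, found in many tissues and abundant in dividing cells, where phosphorylation by mitotic kinases switches it off so that the spindle can form. Stmn2 (also named Scg10), Stmn3 (Sclip) and Stmn4 (Rb3) carry an added N-terminal part that anchors them to membranes by palmitoylation, and they are best known from neurons, where Stmn2 acts in growth cones and axon repair. In the seminiferous tubule, microtubules of the Sertoli cell support its columnar shape and carry vesicles and spermatids along it.

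One set of cultures came from 21-day-old rats (3 arrays), which the labels place at puberty and past the phase of Sertoli cell proliferation. It was set against cultures from 9-day-old rats (3 arrays), which the labels place within that phase. At both ages decapsulated testes were digested, cells were plated in DMEM/F12 with 10% fetal bovine serum, and a change of medium after 24 hours served to purify them further. No strain, transgene or drug is named for either age, and separate rats or cultures are not stated for the replicates, so any p-value measures the spread between these arrays, which may be technical.

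The labelled cell type was checked against 17 named Sertoli cell markers, of which 8 (Wt1, Gata4, Inha, Inhbb, Tf, Clu, Aard and Kitlg) had a mean above the median of the genes compared and 9 did not. Clu, a secreted glycoprotein abundant in Sertoli cells, lay between 9.32 and 10.7 at 21 days and between 8.78 and 9.54 at 9 days, and the transcription factor gene Wt1 between 6.95 and 7.44 in the older and 6.94 and 7.04 in the younger cultures. The transcription factor gene Gata4 lay between 7.56 and 8.21 at 21 days and between 7.98 and 8.18 at 9 days, while Amh and Fshr, which encode the hormone of immature Sertoli cells and the receptor for follicle-stimulating hormone, were low, with Amh from 3.26 to 3.49 in the older and from 3.07 to 3.24 in the younger cultures, and Fshr from 2.60 to 3.48 in the older and from 2.43 to 2.69 in the younger. The medians over the genes compared were 4.61 to 4.70. Sox9 was not analysed here. All 8 markers of smooth muscle and peritubular myoid cells and all 6 of fibroblasts had means above those medians. Levels of different probe sets are only a rough guide, and which cells gave these signals was not tested. The arrays numbered 3 stood apart from the others at both ages on the first principal component, which held 50.8% of the variance. In limma, fitted across all 14506 genes, 0 (0.0%) passed an adjusted p under 0.05, while 431 (2.97%) had an unadjusted p under 0.05, or 1122 (7.73%) with the replicate number as a block.

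**Figure D1:**
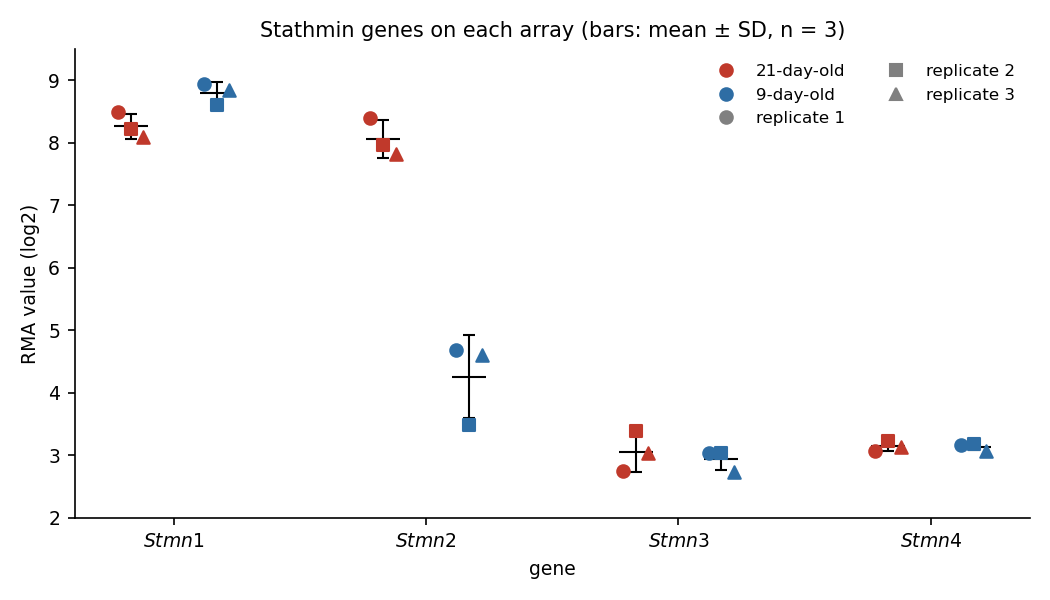
RMA values (log2) of the 4 stathmin genes on each array, with 21-day-old arrays in red to the left of 9-day-old arrays in blue, the marker shape giving the replicate number and bars the mean ± SD (n = 3 each). Stmn2 lies between 7.82 and 8.40 at 21 days and between 3.49 and 4.69 at 9 days, Stmn1 is modestly lower at 21 days, and Stmn3 and Stmn4 overlap between the ages.

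Stmn1, the member of dividing cells, was slightly lower in the older cultures. Its values were 8.49, 8.22 and 8.10 in replicates 1, 2 and 3 at 21 days, against 8.95, 8.61 and 8.84 at 9 days. Every array of 21 days lay below every array of 9 days, by a margin of 0.12 between the nearest arrays. The means were 8.27 ± 0.20 at 21 days and 8.80 ± 0.17 at 9 days (SD, n = 3 each), a log2 difference of -0.53 ± 0.15 (SE), or 0.692 of the younger signal. Between arrays of the same replicate number the differences were -0.46, -0.39 and -0.74. In order from the most negative difference, Stmn1 was gene 90 of 14506. Here, as in any bulk sample, fewer cells of a type and less RNA per cell cannot be told apart. RefSeq lists 4 pseudogenes named after stathmin in the rat, and whether the Stmn1 probe set also captures their transcripts was not tested.

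Stmn2 was much higher in the older cultures. Its values were 8.40, 7.96 and 7.82 in replicates 1, 2 and 3 at 21 days, against 4.69, 3.49 and 4.61 at 9 days. The lowest array of 21 days stood 3.13 log2 units above the highest of 9 days, so the groups were far apart. The means were 8.06 ± 0.30 at 21 days and 4.26 ± 0.67 at 9 days (SD, n = 3 each), a log2 difference of 3.80 ± 0.42 (SE), or 13.9-fold. It was the largest difference of either sign among the 14506 genes, ahead of 3.59 for the next largest positive difference, that of the iron carrier gene Tf. Arrays of the same number differed by 3.71, 4.47 and 3.22, and leaving out any 1 array gave differences between 3.42 and 4.01. Within each array, Stmn2 stood at the 88.6th to 92.5th percentile of the genes at 21 days and at the 36.7th to 50.7th at 9 days, a rough guide to a signal that is strong at one age and middling or low at the other.

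The spread within an age was uneven for Stmn2. At 9 days it came mainly from replicate 2, at 3.49, while replicates 1 and 3 were within 0.1 of each other. The pooled SD within ages was 0.52 for Stmn2, against a median of 0.15 over all genes, and was the 549th largest. The difference between the ages was 7.32 times that SD for Stmn2 and -2.83 times the pooled SD of 0.19 for Stmn1.

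Stmn3 had values of 2.75, 3.39 and 3.04 at 21 days, against 3.04, 3.04 and 2.73 at 9 days. The ages overlapped. The means were 3.06 ± 0.32 at 21 days and 2.94 ± 0.18 at 9 days (SD, n = 3 each), with a log2 difference of 0.12 ± 0.21 (SE) that turned to -0.043 without 21-day-old replicate 2. Stmn4 had 3.07, 3.23 and 3.13 at 21 days, against 3.16, 3.18 and 3.07 at 9 days, and these also overlapped. Its means were 3.14 ± 0.08 at 21 days and 3.14 ± 0.06 at 9 days (SD, n = 3 each), a log2 difference of 0.0042 ± 0.057 (SE) that turned to -0.039 without 21-day-old replicate 2. Stmn3 lay between the 20.5th and 34.0th percentile of the genes on every array and Stmn4 between the 28.4th and 31.3rd. Without detection calls, it is unknown if these low signals exceed background, and the small differences do not show that expression was equal at the ages.

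Counted together, 2 of the 4 members, Stmn1 and Stmn2, showed no overlap between 21 and 9 days, against 5.72% of all genes. Higher at 21 days without overlap were 1 of the 4 and 2.74% of all genes, and lower without overlap 1 of the 4 and 2.98%. A difference of at least 2-fold was found for 1 of the 4, Stmn2, against 0.427% of all genes, of which 0.352% were higher and 0.0758% lower at 21 days. Because these same differences were known when the family was chosen, the shares are no evidence about it.

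**Figure D2:**
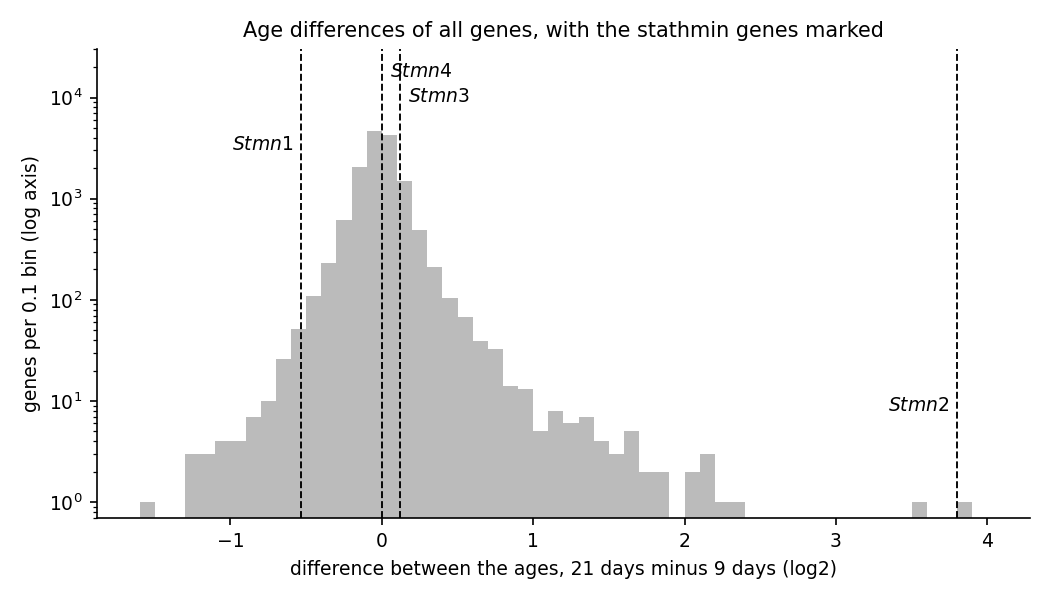
Number of genes (log axis) by their difference between the ages, 21 days minus 9 days (log2), over all 14506 genes in bins of 0.1, with dashed lines at the 4 stathmin genes. Stmn2 at 3.80 lies at the far right end, Stmn1 at -0.53 in the left flank, and Stmn3 and Stmn4 near 0.

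The members did not move together across the 6 arrays. Pearson's r was -0.749 between Stmn1 and Stmn2, whose values are set apart by age in opposite directions, and 0.956 between Stmn3 and Stmn4, both at low signal and with ranges over the arrays of only 0.66 and 0.16. The other pairs gave r between -0.473 and 0.177. These correlations over 6 arrays share the arrays, the normalization and the ages, and are descriptive.

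Genes of cell proliferation, the setting in which Stmn1 is best known, were lower at 21 days without passing the test. Of 22 measured genes of a proliferation list, 22 had a lower mean at 21 days, against 53.5% of all genes. Their median difference was -0.35 (log2), and that of all genes -0.0093. None passed an adjusted p under 0.05 in limma. An unadjusted p under 0.05 was found for 4, against 2.97% of all genes, and with the replicate number as a block for 17, against 7.73%. For 2, Aurkb and Plk1, the ages did not overlap, against 2.98% of all genes that were lower without overlap. The mean of the list was 7.50, 7.10 and 7.07 in replicates 1, 2 and 3 at 21 days, against 7.75, 7.45 and 7.57 at 9 days. These means overlapped between the ages, since 21-day-old replicate 1 lay above 9-day-old replicate 2, but between arrays of the same number the list mean was lower at 21 days in all 3 pairs, by differences of -0.25, -0.35 and -0.50. Without 9-day-old replicate 2, 21 of the 22 were lower.

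Single genes of that list give the size. Bub1b, which holds back mitosis until chromosomes attach, had a log2 difference of -0.62 ± 0.32 (SE) and was -0.43 without 9-day-old replicate 1. Nusap1, which binds spindle microtubules, differed by -0.57 ± 0.35 and by -0.34 without the same array. Kif11, the motor that pushes spindle poles apart, differed by -0.53 ± 0.29, and by -0.30 without 21-day-old replicate 2. These SEs ignore the pairing, and with the replicate block they were 0.098 for Bub1b, 0.065 for Nusap1 and 0.073 for Kif11, against 0.11 for Stmn1. Each of the 3 was lower at 21 days in all 3 pairs, as Stmn1 was.

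Across the arrays the signal of Stmn1 ran alongside most of these genes. Pearson's r with Stmn1 over the 6 arrays was highest for the mitotic kinase genes Plk1 (0.986) and Cdk1 (0.979), followed by Aurkb (0.944), and 17 of the 22 (77.3%) had r of at least 0.7, as had 5.27% of all other genes. The minichromosome maintenance genes of the replicative helicase did not, with r of 0.213 for Mcm2, 0.189 for Mcm6 and -0.132 for Mcm5. Since ages and arrays are shared, these values describe likeness only.

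**Figure D3:**
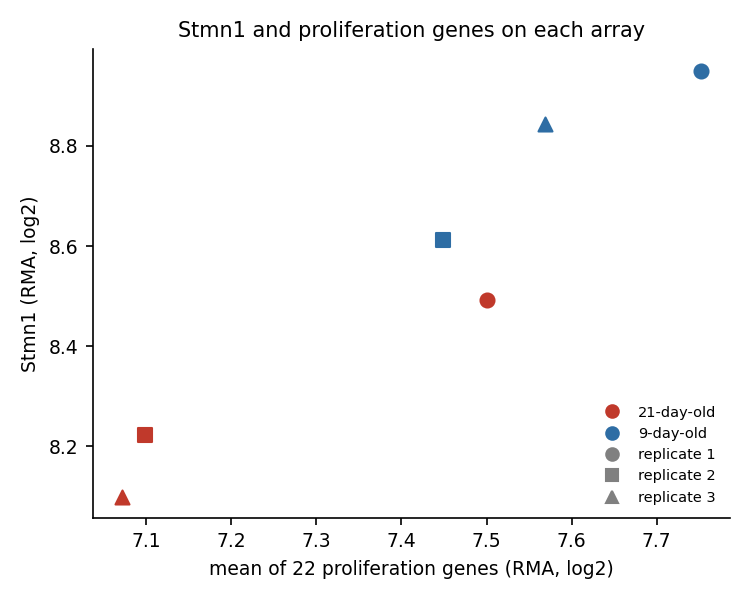
Stmn1 (RMA, log2) against the mean of 22 proliferation genes (RMA, log2), 1 point per array, 21-day-old in red and 9-day-old in blue, the shape giving the replicate number. Stmn1 is lowest on 21-day-old replicates 2 and 3, whose list means of 7.10 and 7.07 are also the lowest, and highest on 9-day-old replicate 1, with the highest list mean of 7.75.

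The RefSeq table (build GRCr8) held a promoter, 250 bases before and 50 after the start it uses, for 2 of the members, Stmn1 and Stmn3. That of Stmn1 is shown with those of Plk1 and Cdk1, the genes of the proliferation list nearest to it in pattern. Capitals mark matches, on either strand (ATTGG is CCAAT read on the other strand), to motifs known from promoters of cell-cycle genes. These are the E2F motif (searched as TTTGGCGC, TTTCCCGC, TTTGCCGC and TTTCGCGC), the CCAAT box (CCAAT) and the cell-cycle homology region, or CHR (TTTGAA).
Stmn1, chr5:151964929-151965228, plus strand: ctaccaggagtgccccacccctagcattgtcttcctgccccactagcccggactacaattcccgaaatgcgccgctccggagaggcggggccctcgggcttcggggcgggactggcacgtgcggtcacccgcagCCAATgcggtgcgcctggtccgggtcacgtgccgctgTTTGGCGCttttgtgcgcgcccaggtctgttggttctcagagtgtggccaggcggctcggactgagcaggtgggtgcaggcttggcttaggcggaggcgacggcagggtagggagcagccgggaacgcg
Plk1, chr1:186147408-186147707, plus strand: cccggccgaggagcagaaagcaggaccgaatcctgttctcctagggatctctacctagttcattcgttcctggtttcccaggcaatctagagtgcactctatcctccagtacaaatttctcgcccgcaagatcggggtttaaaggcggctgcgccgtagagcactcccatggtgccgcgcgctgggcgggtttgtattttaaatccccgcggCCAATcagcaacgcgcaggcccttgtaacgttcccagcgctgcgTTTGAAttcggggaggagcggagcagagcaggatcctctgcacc
Cdk1, chr20:19265043-19265342, plus strand: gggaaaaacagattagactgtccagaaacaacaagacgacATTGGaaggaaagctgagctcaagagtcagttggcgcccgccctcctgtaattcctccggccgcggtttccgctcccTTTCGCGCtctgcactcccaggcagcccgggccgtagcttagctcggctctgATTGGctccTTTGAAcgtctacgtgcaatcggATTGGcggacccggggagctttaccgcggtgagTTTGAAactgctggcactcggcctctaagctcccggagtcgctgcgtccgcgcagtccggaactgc

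The Stmn1 promoter holds 1 E2F match, which starts 79 bases before the start, and 1 CCAAT box, which starts 116 bases before it, and no match to the CHR letters. Cdk1 holds 1 E2F match, 3 CCAAT boxes and 2 CHR matches, and Plk1 1 CCAAT box and 1 CHR match. The motifs do not overlap each other in these windows. An E2F match was found in 2.14% of 33469 RefSeq promoters of this length, a CCAAT box in 37.5% and a CHR match in 18.3%. Of the 22 proliferation genes, 18 had a promoter in the table, and 5 of them (27.8%) held an E2F match, 12 (66.7%) a CCAAT box and 8 (44.4%) a CHR match. The Stmn3 window, on chromosome 3, held none of the 3 motifs. A match is a description of letters and not a bound site.

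Genes known from neurons, where Stmn2, Stmn3 and Stmn4 are best studied, were also compared between the ages. No gene of any list could reach the Stmn2 difference, since it was the largest of all 14506 genes. Of 22 measured genes of a neuron list, 15 had a higher mean at 21 days, against 46.5% of all genes, and the median difference was 0.037 (log2). None passed an adjusted p under 0.05 in limma, and 1 of the 22, Nefm, was at least 2-fold higher at 21 days, against 0.352% of all genes. An unadjusted p under 0.05 was found for 0, or for 1 with the replicate block, against 2.97% and 7.73% of all genes. For 3 of the 22, Nefm, Nefl and Ina, every array of 21 days lay above every array of 9 days, against 2.74% of all genes. On every array 16 of the 22 lay below the median of the genes compared, among them Rbfox3 and Elavl3, RNA-binding proteins of neurons, and Snap25 and Syt1 of the synaptic vesicle machinery. Another 4, Nefh, Tubb3, Uchl1 and Stx1a, lay above it on every array. Uchl1 was between 7.68 and 8.43 at 21 days and between 8.02 and 8.22 at 9 days. Gap43, a growth cone protein often studied beside Stmn2, was at 2.74, 2.74 and 2.89 at 21 days, against 2.73, 2.74 and 2.74 at 9 days.

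These 3 encode filament proteins of the axon, and for Nefm and Nefl most of the difference came from 1 array. Nefm, the medium neurofilament, was at 2.91, 2.87 and 6.69 in replicates 1, 2 and 3 at 21 days, against 2.79, 2.78 and 2.76 at 9 days, and Nefl, the light one, at 3.40, 3.47 and 4.79, against 3.12, 3.30 and 3.15. Both were highest on 21-day-old replicate 3. Their log2 differences of 1.38 ± 1.27 and 0.69 ± 0.46 (SE) were 0.11 and 0.24 without it. Ina was at 2.87, 2.81 and 2.82 at 21 days, against 2.59, 2.70 and 2.74 at 9 days, a low signal with a difference of 0.16 ± 0.05 (SE). Syt1, a calcium sensor of synaptic vesicles, differed the other way, by -0.60 ± 0.31, or by -0.40 without 21-day-old replicate 2. Arrays of the same number differed by -0.51, -0.68 and -0.60 for Syt1, and its SE with the replicate block was 0.049. Tubb3, a tubulin often used as a neuronal marker, had a strong signal of 8.17, 8.02 and 8.55 at 21 days and 8.20, 8.14 and 8.70 at 9 days, with overlap between the ages.

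**Figure D4:**
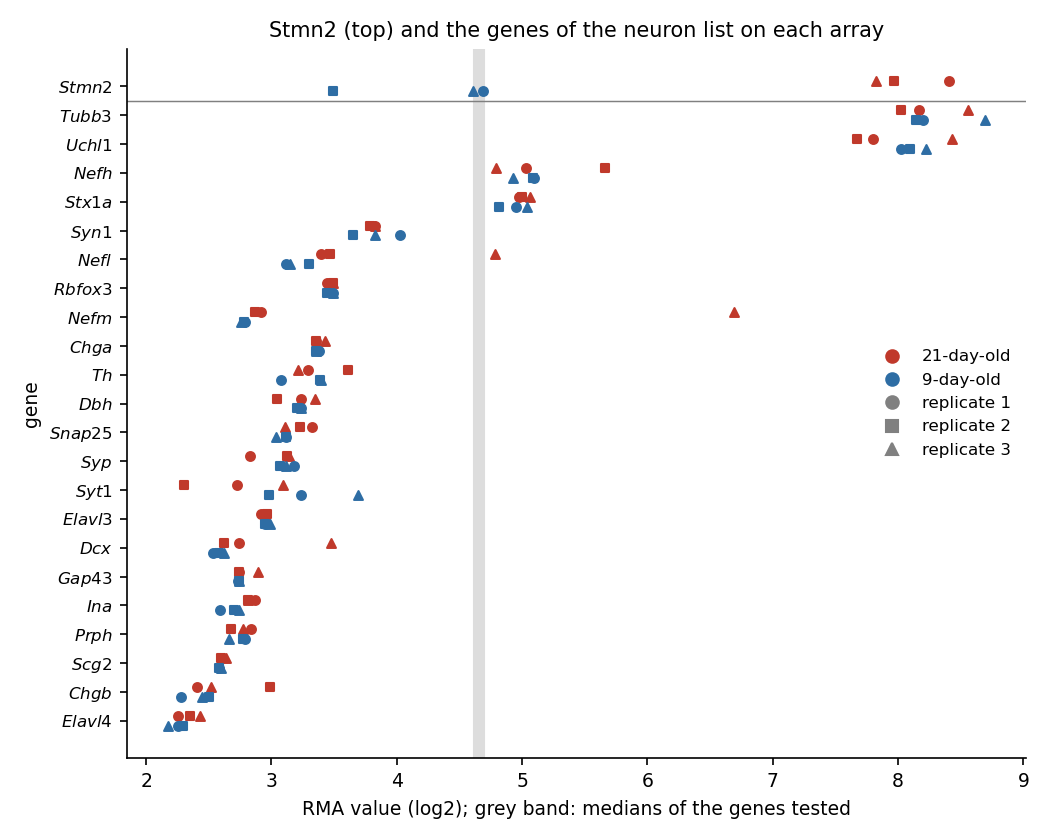
RMA values (log2, horizontal axis) of Stmn2 in the top row and of the 22 genes of the neuron list below it, 1 marker per array, 21-day-old in red above 9-day-old in blue, with the shape giving the replicate number and a grey band over the medians of the genes compared (4.61 to 4.70). The ages are far apart for Stmn2, whose difference is the largest of all 14506 genes. In the list the widest gap is Nefm on 21-day-old replicate 3 at 6.69.

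Marker lists of other cells moved with age to different degrees, and their part in the Stmn2 and Stmn1 differences was not tested. Of the 17 Sertoli cell markers, 15 were higher at 21 days, against 46.5% of all genes. Of these, 5 were without overlap (against 2.74% of all genes) and 4 at least 2-fold (against 0.352%), led by Tf at 3.59. Their unadjusted p in limma was under 0.05 for 2, or for 7 with the replicate block, against 2.97% and 7.73% of all genes. After adjustment 0 passed. The list means were 4.87, 5.23 and 5.81 in replicates 1, 2 and 3 at 21 days, against 4.56, 4.72 and 4.63 at 9 days. Among the 3 arrays of each age, Stmn2 was highest on the array with the lowest Sertoli mean and lowest on the array with the highest. Over all 6 arrays, Pearson's r of the Sertoli markers with Stmn2 ran from -0.439 to 0.815, with a median of 0.492. For the neuron list it ran from -0.618 to 0.808 (median 0.266), and for Leydig cell markers from -0.433 to 0.815 (median 0.238). The share of all genes with such values was not worked out. The median difference of the Sertoli markers was 0.32, or 0.165 without 21-day-old replicate 3. Smooth muscle and myoid markers had 8 of 8 members lower at 21 days, with list means of 7.89 to 9.84, against 8.54 to 10.1 at 9 days, and both ages were highest in replicate 3. Their median of -0.33 turned to 0.064 without 9-day-old replicate 3 and to 0.015 without 21-day-old replicate 2. Without both arrays numbered 3 the difference was 4.09 for Stmn2 and -0.42 for Stmn1.

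Markers of neural crest and Schwann cells averaged 3.61 to 3.71 at 21 days and 3.52 to 3.68 at 9 days. Of these, 6 of 8 were higher, against 46.5% of all genes. Sox10, which defines these cells, was between 4.36 and 4.54 on all 6 arrays. S100b, the 1 member with a mean above the medians of the genes compared, lay between 4.12 and 5.65 at 21 days and between 4.02 and 5.31 at 9 days. Its log2 difference of 0.44 ± 0.61 (SE) was the largest of the list. Germ cell markers averaged 2.76 to 2.99 at 21 days and 2.76 to 2.82 at 9 days, with 6 of 8 higher, and macrophage markers 2.87 to 2.95 and 2.83 to 2.99, with 4 of 8 higher. Leydig cell markers averaged 4.02 to 4.18 at 21 days and 3.99 to 4.15 at 9 days, with 5 of 7 higher. Endothelial markers had 3 of 6 members higher and list means of 3.64, 3.77 and 4.003 at 21 days, against 3.73, 3.90 and 4.16 at 9 days, and fibroblast markers 9.28 to 9.88 and 9.74 to 9.83, with 1 of 6 higher. Fibroblast markers were the 1 list of these with a mean above the medians of the genes compared.

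Tubulins, the proteins that stathmins bind, differed little between the ages. Of 17 measured tubulin genes, 13 had a lower mean at 21 days, against 53.5% of all genes, and the median difference was -0.085 (log2). None passed in limma, and 0 had an unadjusted p under 0.05, or 2 with the replicate block, against 2.97% and 7.73% of all genes. Tubb4b, a widely expressed beta tubulin, was at 8.97, 8.94 and 9.09 at 21 days, against 9.10, 9.19 and 9.19 at 9 days. It was the 1 of 17 tubulins without overlap, near the 5.72% of all genes. Tuba4a had a log2 difference of 0.42 ± 0.36 (SE), which became 0.19 without 21-day-old replicate 1, and Tubb2b one of -0.25 ± 0.36, which became -0.064 without 9-day-old replicate 3. The abundant Tuba1a, Tuba1b, Tuba1c and Tubb5 differed by -0.085, -0.076, -0.064 and -0.15.

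Genes that fold or modify tubulin had 9 of 17 members lower, against 53.5% of all genes, and a median of -0.035. In limma 0 had an adjusted p under 0.05, and 0 an unadjusted p under 0.05, against 2.97% of all genes. The 3 largest differences were -0.16 ± 0.23 (log2, SE) for Vash2, which detyrosinates tubulin, -0.13 ± 0.37 for the folding cofactor gene Tbcb and -0.13 ± 0.09 for Ttll12. Single arrays carried much of these, since Vash2 was at 0.0001 without 9-day-old replicate 2, Tbcb at 0.16 without 21-day-old replicate 3 and Ttll12 at -0.060 without 9-day-old replicate 2.

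Proteins that stabilise microtubules or ride on their ends work against the action of stathmins. Of 25 measured genes of this kind, 15 were lower at 21 days, against 53.5% of all genes, with a median of -0.018. In limma 0 passed, with 0 at an unadjusted p under 0.05, or 1 with the replicate block, against 2.97% and 7.73% of all genes. The count depended on single arrays, with 8 lower without 9-day-old replicate 3 and 7 without 21-day-old replicate 2. Dcx, doublecortin of migrating neurons, differed by 0.36 ± 0.27 (log2, SE), Map7 by 0.33 ± 0.18 and Map1b, a neuronal microtubule protein, by 0.32 ± 0.82. Without 1 array they were 0.10 (without 21-day-old replicate 3), 0.21 (without 9-day-old replicate 3) and -0.39 (without 21-day-old replicate 3).

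Other proteins that shorten or sever microtubules had 5 of 10 measured genes lower and a median of -0.0022. None passed in limma, and 1, Kif18b, had an unadjusted p under 0.05, or 2 with the replicate block, against 2.97% and 7.73% of all genes. Kif18b, a mitotic motor that shortens microtubule ends, was at 6.60, 6.47 and 6.73 at 21 days, against 7.09, 7.07 and 7.24 at 9 days, with no overlap. Kif2c, a mitotic depolymerase, had a log2 difference of -0.47 ± 0.29 (SE), which became -0.27 without 21-day-old replicate 3, and the severing enzyme gene Fign by -0.18 ± 0.10, or by -0.099 without 21-day-old replicate 1. Others of the list with roles in the spindle or in severing differed little, with 0.039 for Kif2a, -0.14 for Kif2b, -0.034 for Katna1 and 0.052 for Spast.

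**Figure D5:**
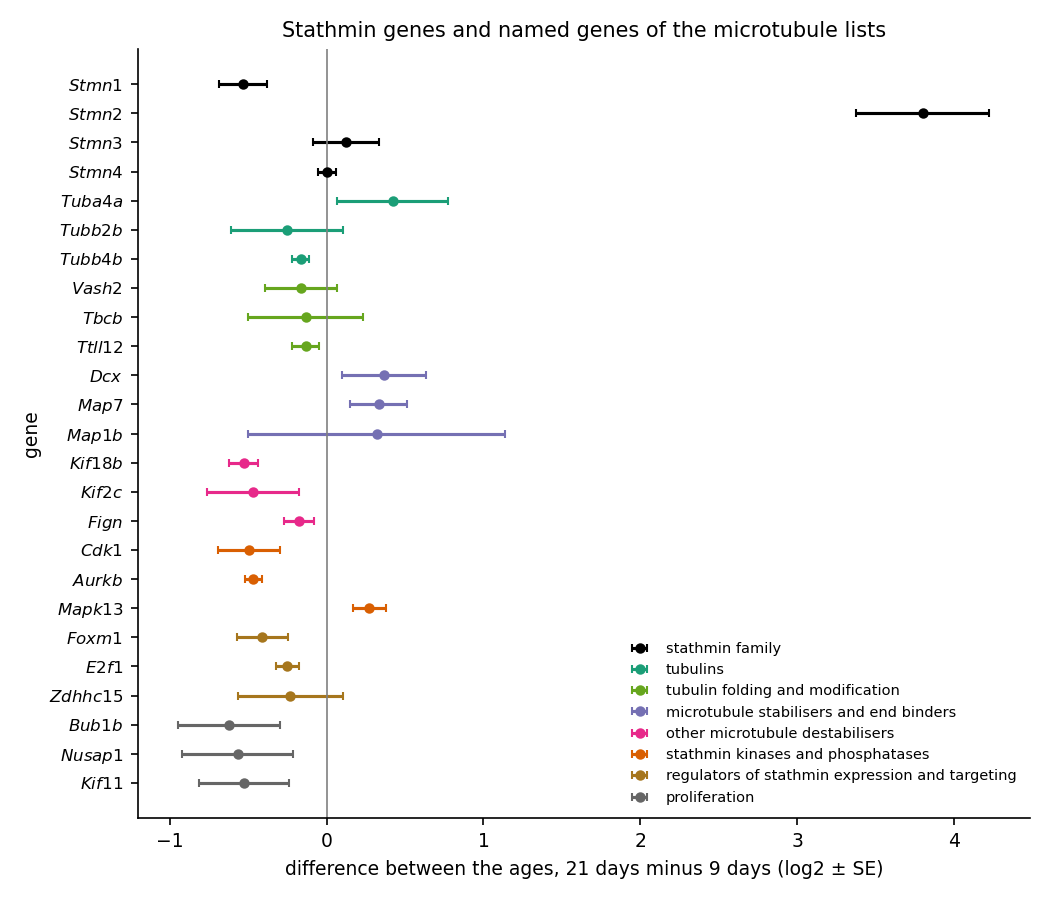
Differences between the ages, 21 days minus 9 days (log2 ± SE, n = 3 arrays each), for the 4 stathmin genes and the 3 genes of largest absolute difference from each microtubule, regulator and proliferation list, coloured by list. Stmn2 at 3.80 stands apart, while all other genes shown lie between -0.62 and 0.42.

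Kinases and phosphatases known to act on stathmins had 17 of 24 measured genes lower at 21 days, against 53.5% of all genes, and a median of -0.039. None passed in limma, and 3 of 24 had an unadjusted p under 0.05, against 2.97% of all genes. With the replicate block it was also 3, against 7.73% of all genes. Aurkb was the 1 of 24 (4.17%) without overlap, against 5.72% of all genes. Aurkb and Cdk1, mitotic kinases that phosphorylate Stmn1, had the largest differences, and both were also counted in the proliferation list. Aurkb was at 8.21, 8.20 and 8.09 at 21 days, against 8.69, 8.57 and 8.65 at 9 days, without overlap, and Cdk1 differed by -0.50 ± 0.20 (log2, SE) with overlap. Mapk13, a p38 kinase, differed by 0.27 ± 0.10. Mapk8, the JNK kinase that acts on Stmn2 in neurons, differed by -0.082 ± 0.17, and by 0.045 without 9-day-old replicate 3.

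Regulators of stathmin expression and membrane targeting had 10 of 14 measured genes lower, against 53.5% of all genes, and a median of -0.045. None passed in limma, and 2 had an unadjusted p under 0.05, or 4 with the replicate block, against 2.97% and 7.73% of all genes. The cell-cycle transcription factor genes Foxm1 and E2f1 had the largest differences and did not overlap between the ages, as 2 of 14 members against 2.98% of all genes lower without overlap. Foxm1 was at 6.80, 6.59 and 6.81 at 21 days, against 7.03, 6.96 and 7.43 at 9 days, a log2 difference of -0.41 ± 0.16 (SE) that was -0.27 without 9-day-old replicate 3, and E2f1 differed by -0.25 ± 0.08. Zdhhc15, a palmitoyl transferase, differed by -0.23 ± 0.33, or by -0.045 without 9-day-old replicate 3. Rest, the repressor of neuronal genes, was at 6.59, 6.27 and 6.59 at 21 days, against 6.46, 6.64 and 6.57 at 9 days. Tardbp, which in human neurons keeps STMN2 transcripts from being spliced short, differed by -0.19 ± 0.16, or by -0.059 without 21-day-old replicate 2. The ages overlapped for both Rest and Tardbp. Between arrays of the same number Tardbp differed by -0.14, -0.28 and -0.16, and Rest by 0.13, -0.37 and 0.02. With the replicate block the SE was 0.045 for Tardbp and 0.15 for Rest.

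The genes most like each member in pattern were sought among the 568 genes with an SD of at least 0.5 over the 6 arrays. For Stmn2 they were Serinc2, with Pearson's r of 0.911, F11r, a junctional adhesion molecule, with 0.908, and Defb36, a beta-defensin gene, with 0.862. Serinc2 was at 7.65, 7.67 and 7.98 at 21 days, against 7.10, 6.86 and 6.70 at 9 days. F11r was at 5.43, 4.83 and 6.02, against 3.88, 3.50 and 4.09, and Defb36 at 6.30, 6.35 and 7.59, against 5.17, 4.85 and 5.05. In these 3 genes, as in Stmn2, every array of 21 days lay above every array of 9 days, though the differences of 0.88, 1.61 and 1.72 were smaller than the 3.80 of Stmn2. These 3 genes were picked by r with Stmn2, whose values are far apart between the ages, so this separation is largely built into the choice.

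For Stmn1 the nearest of the 568 were the retinal reductase gene Dhrs3 (r 0.940), Emb (0.862) and Il1rl1 (0.842). Their log2 differences were -0.77 ± 0.32, -1.05 ± 0.63 and -1.11 ± 0.51 (SE). All 3 overlapped between the ages, unlike Stmn1, but like Stmn1 each was lower at 21 days in all 3 pairs. With the replicate block the SEs were 0.20, 0.26 and 0.36. Emb differed by -0.61 without 21-day-old replicate 3 and Il1rl1 by -0.74 without 9-day-old replicate 3. Plk1, Cdk1 and Aurkb had a higher r with Stmn1 (0.986, 0.979 and 0.944) but an SD under 0.5, so the search left them out. For Stmn3 they were Aard (0.854), Igfbp5 (0.853) and Mmp12 (0.836), and for Stmn4 Igfbp5 (0.899), Has2 (0.879) and Mmp12 (0.851). Igfbp5, Has2 and Mmp12 had their highest value on 21-day-old replicate 2, as Stmn3 and Stmn4 had. With Stmn3 and Stmn4 varying by less than 1 log2 unit at low signal, likeness to them says little.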

How the data were processed

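Total RNA of 6 samples was measured on Affymetrix arrays. The authors deposited log2 values. The submitters' processing notes name RMA, a method that corrects background, normalizes by quantiles and summarises probe sets. Its version is not given in the sources used here. Scan dates and slides were not used, so no batch was tested. Of 29214 probe sets, 15310 had 1 gene symbol in the platform annotation, 323 several and 13581 none. The Entrez numbers of 15279 were found in RefSeq (GRCr8), which changed 0 symbols. The probe set of highest mean was kept for the 527 genes with several.

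Ages were compared as 21 days minus 9 days in limma 3.58.1 (R 4.3.3) by lmFit and eBayes, with Benjamini-Hochberg adjustment over 14506 genes and a threshold of 0.05. The SE beside a difference is the ordinary one. The fit was run on simulated independent arrays with known large differences, to check that it returned them. That check does not bear on the smaller differences or the paired replicate numbers of these arrays. Figures used matplotlib 3.10.9 in Python 3.11.15. The number of arrays limits the precision.

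Members, lists and tests were chosen with earlier results of these data known. Named are the members, the 3 genes of largest absolute difference of each pathway list and of the neuron list, and 8 genes fixed by name. Named too are the 3 genes of highest Pearson r with each member, among the 568 genes with an SD of at least 0.5. Other genes, and the promoters and motifs, were named after their values were seen. Deviations of same-numbered arrays from their age means correlated, across genes, at 0.439, 0.549 and 0.673 for numbers 1, 2 and 3, so the numbers in the titles were taken as pairing the arrays, although what they stand for is not stated. Alternatives were the replicate block, filters, scalings, other probe set rules and variance models, and leaving out arrays.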

Additional observations from a re-analysis of the deposited data

How the results depend on the processing

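Among the 13 alternatives run for each member, the difference of Stmn2 lay between 3.42 and 4.09 and that of Stmn1 between -0.64 and -0.42, so both kept their direction in all of them. The other probe set rules could not change a member's difference, since each member had 1 probe set. Neither could the replicate block, with each replicate number present at both ages. Leaving out 1 array gave 3.42 to 4.01 for Stmn2, -0.64 to -0.45 for Stmn1, -0.043 to 0.28 for Stmn3 and -0.039 to 0.040 for Stmn4. Stmn3 turned without 21-day-old replicate 2 (-0.043), and Stmn4 turned after subtracting array medians (-0.021), after a further quantile normalization (-0.027), with array weights (-0.022), without 9-day-old replicate 3 (-0.029), without 21-day-old replicate 2 (-0.039) and without both arrays numbered 3 (-0.021). With the replicate number as a block the differences of the members were the same, with an SE of 0.37 for Stmn2 and 0.11 for Stmn1. In limma 0 genes passed in every alternative. With the block the count at an unadjusted p under 0.05 was 1122, against 431 without it, and the block brought no member of a list past adjustment. Subtracting array medians made 298 of 456 genes at that p lower at 21 days, against 220 of 431 without it. No member of any list passed in any alternative. The median of the other destabilisers was -0.069 without 9-day-old replicate 2 and -0.076 without 21-day-old replicate 1, and that of the regulators -0.19 with the 10879 genes of highest mean kept. The number of neuron genes lower at 21 days was 11 after subtracting array medians, against 7 without it. The neuron list's alternatives were added after the data were seen.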
